A study of Drosophila melanogaster with 4 samples.

Results

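The maltases of Drosophila melanogaster are a family of 10 genes, Mal-A1 to Mal-A8, Mal-B1 and Mal-B2, found by their current FlyBase symbols in a table of 13932 genes measured in the fly gut. All 10 are in the table, and 9 averaged 1 RPKM or more over the 4 libraries and so were tested; Mal-B1 was not. RPKM is reads scaled to transcript length and to library total, so the levels of different maltases can be set side by side. The guts came from females of Oregon R-C, a wild-type laboratory strain, raised on chemical food to which no manganese (2 libraries) or 5 ppm manganese (2 libraries) had been added. On each diet 10 females and 10 males laid eggs for 5 days, and their newly emerged daughters were then fed for 5 more days with new medium of that type. The libraries of a diet are called B and C after the table's columns, and paired values are given in that order. The labels do not say whether a diet's libraries come from different sets of animals, so the p-values measure only the spread between these libraries, and that spread could be technical.

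Maltases are alpha-glucosidases of the gut: they cut maltose and related short sugars, the products of amylase, into glucose that the midgut can take up. In flies they are made mainly by enterocytes, the absorptive cells of the midgut, and sugar in the food is known to repress digestive carbohydrase genes. Each maltase below is an enzyme of this class by its name and family; their separate substrates were not analysed here.

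The Mal-A genes form 1 cluster on chromosome 2R, from 8449664 to 8473961 in dm6 coordinates, a stretch of 24298 bases that holds 0 other genes of the table. In map order Mal-A1 (FBgn0002570, minus strand) lies from 8449664 to 8451904, Mal-A2 (FBgn0002569, plus) from 8453627 to 8455782 and Mal-A3 (FBgn0002571, minus) from 8455909 to 8457892. Next come Mal-A4 (FBgn0033294, plus) from 8458815 to 8460884, Mal-A5 (FBgn0050359, plus) from 8462753 to 8465092 and Mal-A6 (FBgn0050360, plus) from 8465158 to 8467595. Mal-A7 (FBgn0033296, minus) from 8468646 to 8471663 and Mal-A8 (FBgn0033297, plus) from 8471954 to 8473961 close the cluster. Neighbours stand between 65 and 1868 bases apart. Mal-B1 (FBgn0032381) and Mal-B2 (FBgn0032382) lie on chromosome 2L, both on the plus strand, from 11847226 to 11849169 and from 11849958 to 11852881, with 788 bases between them. All 10 are protein-coding, with 1786 to 2717 exon bases. The 3' end of Mal-A1 overlaps the P450 gene Cyp4e1 over 4.49% of its exon bases, and Mal-A8 overlaps mtt over 0.331%, each on the opposite strand. Whether counting used strand is not known here, so those reads cannot be told apart. The maltases are paralogs, and it is not known here how reads that match several members were treated. The members share their locus and their libraries and are not replicates of the diet.

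Low values in the table are steps of whole reads, which gave depths of 26122210 and 26311006 reads without manganese and of 24399759 and 28010953 reads with it. For 9 of the 10 maltases every value was a whole read count to within 0.02; the exception was Mal-B2. Markers of enterocytes were present: 4 of 5 averaged above 1 RPKM and brv1 was listed at 0. They summed to 1779 and 1640 RPKM without manganese (libraries B and C) and 1985 and 1678 RPKM with 5 ppm (libraries B and C). Most of each sum was betaTry, with a log2 fold change (no manganese minus 5 ppm) of 0.07 ± 0.17 SE. Those of nub and Myo31DF were -0.04 ± 0.14 and -0.06 ± 0.11 (± SE). Npc1b differed from them, with 352 and 367 RPKM without manganese (B, C), against 585 and 483 RPKM with 5 ppm (B, C). Its log2 fold change was -0.56 ± 0.15 SE (limma, adjusted p = 0.802). The no-manganese library C stood apart in its eggshell and ovary genes. These 9 genes summed to 0.523 and 478 RPKM in no-manganese guts B and C, against 1.15 and 3.12 RPKM in 5 ppm guts B and C, and Cp15 stayed under 1 RPKM in every library. The 7 fat body genes summed to 331 and 834 RPKM on the diet lacking manganese (B, C), against 209 and 479 RPKM on the 5 ppm diet (B, C). Most of these sums came from the yolk protein genes Yp1, Yp2 and Yp3. Yp2 alone had 130 and 391 RPKM without manganese (B, C), against 76.1 and 176 RPKM with 5 ppm (B, C). The listed gene apolpp had 24.5 and 26.7 RPKM without manganese (B, C), against 10.3 and 24.7 RPKM with it (B, C). Lsp2 was highest in the 5 ppm library C, at 2.15 RPKM. Fbp1 and Fbp2 stayed under 1 RPKM in every library. Library C of the no-manganese diet also held the lowest value of 8 of the 10 maltases. The share of all tested genes with their lowest value in that library was not computed, so this count has no background. The part of the eggshell and yolk protein RNA in the maltase values was not tested. The count of non-overlapping members, the median, the sum and several single maltases are given below without the no-manganese library C as well. Named genes outside the family are given with all 4 libraries only. Akh, a corpora cardiaca marker, had 5.07 and 5.03 RPKM without manganese (B, C), against 0.153 and 0.799 RPKM with it (B, C). It did not pass the test (limma, adjusted p = 0.487). Of 9 gut transcription factors by region, 7 were higher and 2 lower without manganese, 2 of the higher ones with no overlap. Over all tested genes, 36.9% had no overlap in either direction. How these markers bear on the maltase values was not tested, and the remaining marker lists are not described here. In whole guts, fewer cells of a type and less RNA per cell cannot be told apart.

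The maltases were among the most abundant transcripts of these guts. Together the 10 members took 3.56% and 3.09% of all reads without manganese (libraries B and C), and 3.92% and 4.10% with 5 ppm (libraries B and C). The exact Clopper-Pearson 95% intervals ran from 3.55% to 3.57% and from 3.08% to 3.09% without manganese, and from 3.91% to 3.93% and from 4.09% to 4.10% with it. These intervals cover counting error only, since PCR reads are not independent molecules. Mal-A1 ranked 5 and 4 among all genes by RPKM in no-manganese guts B and C, and 5 and 3 in 5 ppm guts B and C. Along with Mal-A1, the genes Mal-A6, Mal-A7 and Mal-A8 were within the top 100 genes of every library, 4 members in all.

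**Figure D1:**
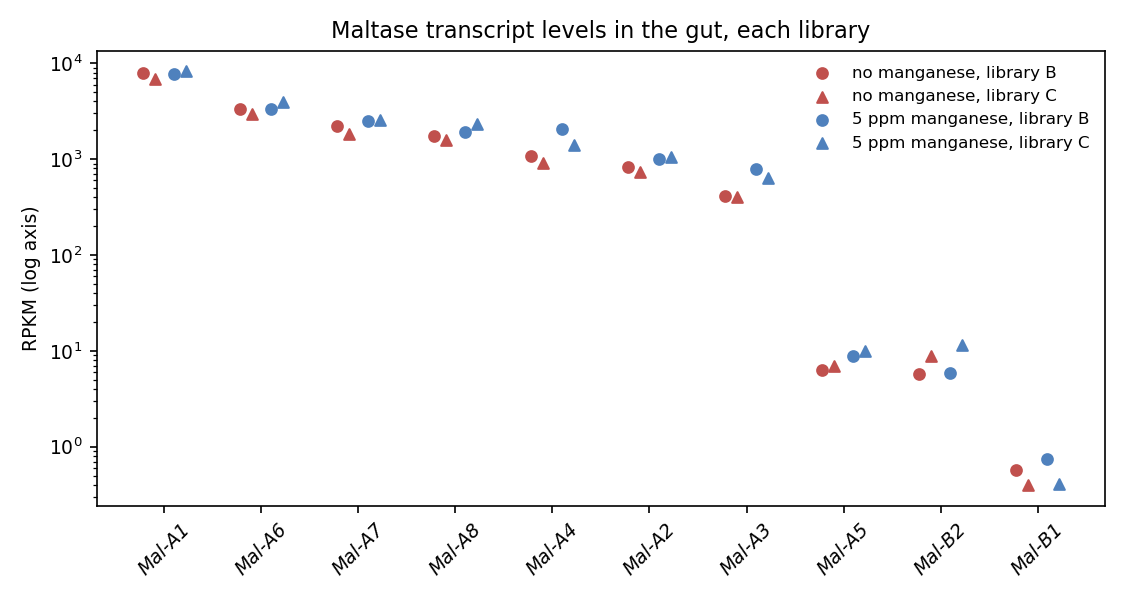
RPKM of the 10 maltases on a log axis, with 1 point per library, no manganese in red and 5 ppm manganese in blue. The members span from above 6780 RPKM for Mal-A1 to below 0.75 RPKM for Mal-B1, and 7 Mal-A genes stand above 400 RPKM in every library.

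The order of the levels, by the mean of the 4 libraries, was Mal-A1, Mal-A6, Mal-A7, Mal-A8, Mal-A4, Mal-A2, Mal-A3, Mal-A5, Mal-B2 and Mal-B1. Their means ran from 7641 RPKM for Mal-A1 to 0.532 RPKM for Mal-B1. Mal-A1, Mal-A6 and the group from Mal-A7 downward were separated, with no overlap of their ranges over the 4 libraries. From Mal-A7 to Mal-A3 each member's range overlapped that of the next. Within a library, however, Mal-A7 was above Mal-A8, Mal-A4 above Mal-A2 and Mal-A2 above Mal-A3 in 4 of 4 libraries, and Mal-A8 was above Mal-A4 in 3 of 4, the exception being the 5 ppm library B. Mal-A3 averaged 564 RPKM and Mal-A5 8.03 RPKM over the 4 libraries, a 70.2-fold step down. Mal-A5 and Mal-B2 could not be ordered, each being the higher in 2 of 4 libraries.

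Mean maltase levels were lower without manganese in all 10 members, and none of these differences passed the test. Of the 9 tested, 0 were higher and 9 lower, where 43.6% of all 7556 tested genes were lower. The values of the no-manganese libraries lay below those of both 5 ppm libraries in 6 of the 9, where 15.2% of all tested genes did. At an unadjusted p under 0.05 (limma on log2(RPKM + 1)), 4 of the 9 were lower, where 2.95% of all tested genes were. At an adjusted p under 0.05, 0 of the 9 passed, as did 0.0% of all tested genes, and the maltases' adjusted p-values ran from 0.776 to 0.955. Over all genes, unadjusted p-values under 0.05 were found for 218 on the higher side and 223 on the lower, and voom on recovered reads also called 0 genes. The median log2 fold change, no manganese minus 5 ppm, was -0.35 over the 9 maltases and 0.024 over all tested genes.

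**Figure D2:**
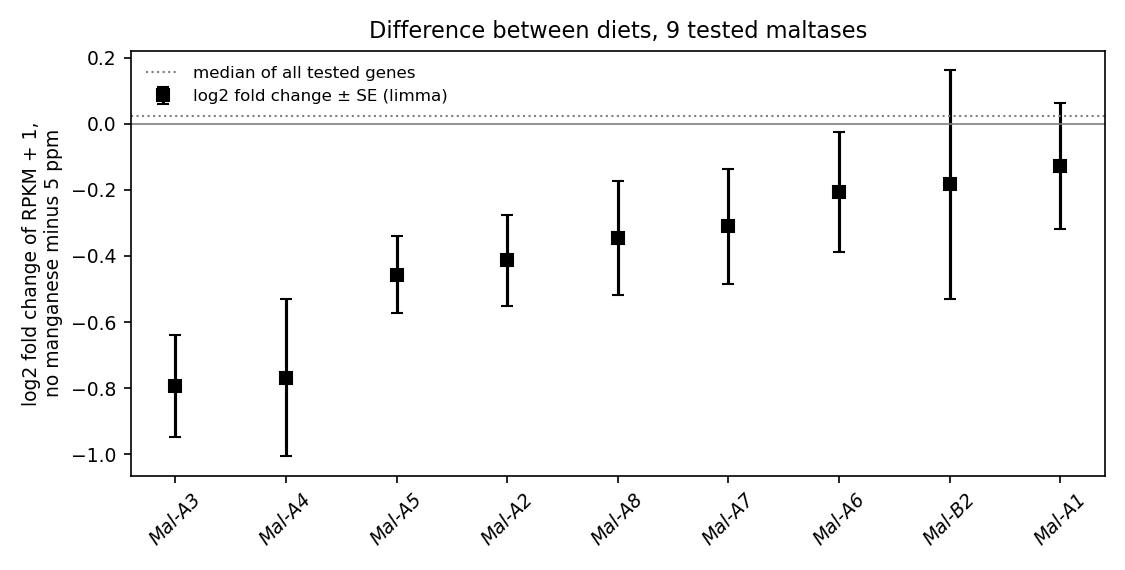
The log2 fold change of RPKM + 1 (no manganese minus 5 ppm) of the 9 tested maltases, with error bars of 1 SE from limma; the dotted line is the median of all tested genes. All 9 points lie below 0, from -0.79 for Mal-A3 to -0.13 for Mal-A1, and none passed at an adjusted p under 0.05.

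The count of members lower with no overlap was repeated with 1 library left out, beside the share of all tested genes. Without the no-manganese library C, which holds the eggshell RNA, it was 7 of the 9, against 33.7% of all tested genes. It was 8 of the 9 without the no-manganese library B, against 26.7%. Without the 5 ppm library B it was 9 of the 9, against 30.1%, and without the 5 ppm library C 6 of the 9, against 29.7%. In each limma fit with 1 library left out, 1 diet has a single library, which is assumed to vary like the other diet's. Such a fit also loses 1 residual degree of freedom, so its unadjusted p-values are not counted here. Without the no-manganese library C the median over the 9 was -0.33.

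Mal-A3 and Mal-A4, which stand next to each other in the cluster, had the log2 fold changes farthest below 0 when all 4 libraries were used. Mal-A3 had 415 and 407 RPKM on the diet lacking manganese (B, C), against 795 and 640 RPKM on the 5 ppm diet (B, C). The no-manganese libraries were close to each other and both lay below the lower 5 ppm library. The means were 411 ± 6.09 RPKM without manganese and 717 ± 109 RPKM with it (SD, n = 2 each), a ratio of 0.573. The log2 fold change was -0.79 ± 0.16 SE (limma, adjusted p = 0.776), and it ran from -0.95 to -0.64 with 1 library left out.

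Mal-A4 had 1077 and 912 RPKM without manganese (libraries B and C), against 2044 and 1396 RPKM with 5 ppm (libraries B and C). The groups did not overlap, but the 5 ppm libraries were far apart, library B being the high one, as it was for Mal-A3. Mal-A4 averaged 994 ± 116 RPKM without manganese and 1720 ± 458 RPKM with it (SD, n = 2 each), a ratio of 0.578. Its log2 fold change was -0.77 ± 0.24 SE (limma, adjusted p = 0.802). Without the no-manganese library C it was -0.65. Without the 5 ppm library B Mal-A4 was at -0.49, with Mal-A5 at -0.54 and Mal-B2 at -0.60. The ratio of Mal-A4 to Mal-A3 was 2.59 and 2.24 in no-manganese guts B and C and 2.57 and 2.18 in 5 ppm guts B and C. It varied with the library letter more than with the diet.

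Mal-A2, on the other side of Mal-A3 at a distance of 126 bases, showed a smaller log2 fold change. It had 822 and 731 RPKM on the diet lacking manganese (B, C), against 1011 and 1054 RPKM on the 5 ppm diet (B, C). All values without manganese lay below all values with it. Its log2 fold change was -0.41 ± 0.14 SE (limma, adjusted p = 0.802), and -0.50 to -0.33 with 1 library left out.

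Mal-A5 was weak for its place in the cluster. It had 6.25 and 6.98 RPKM without manganese (libraries B and C), against 8.83 and 10.1 RPKM with 5 ppm (libraries B and C). The groups did not overlap, and the values rest on 343 and 386 reads without manganese and 453 and 593 reads with it. The log2 fold change was -0.46 ± 0.12 SE (limma, adjusted p = 0.802), which the pseudocount of 1 understates; with a pseudocount of 0.1 it was -0.51. Mal-A6 starts 65 bases beyond the end of Mal-A5 on the same strand. The ratio of Mal-A6 to Mal-A5 was 535 and 421 in no-manganese guts B and C, and 377 and 389 in 5 ppm guts B and C. Neighbours 65 bases apart thus differed in level by 377-fold or more in each of the 4 libraries.

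The abundant Mal-A7 and Mal-A8, which stand 290 bases apart on opposite strands, had values that did not overlap between the diets. Mal-A7 had 2242 and 1825 RPKM on the diet lacking manganese (B, C), against 2489 and 2530 RPKM on the 5 ppm diet (B, C). The 5 ppm libraries nearly coincided, and the no-manganese library C was the low one. Its log2 fold change was -0.31 ± 0.17 SE (limma, adjusted p = 0.822). It was -0.16 without the no-manganese library C. Mal-A8 had 1760 and 1601 RPKM without manganese (libraries B and C), against 1936 and 2349 RPKM with 5 ppm (libraries B and C). Its log2 fold change was -0.35 ± 0.17 SE (limma, adjusted p = 0.802). Leaving out 5 ppm library C, the highest for this gene, gave -0.21, and leaving out the no-manganese library C gave -0.28.

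The highest members of the family, Mal-A1 and Mal-A6, overlapped between the diets. Mal-A1 had 7839 and 6780 RPKM in no-manganese guts B and C, against 7726 and 8218 RPKM in 5 ppm guts B and C. The no-manganese library B stood above the 5 ppm library B. The log2 fold change was -0.13 ± 0.19 SE (limma, adjusted p = 0.928). It was -0.02 without the no-manganese library C, -0.23 without the no-manganese library B and -0.08 without the 5 ppm library C. Quantile normalisation gave -0.04. Mal-A6 had 3339 and 2940 RPKM on the diet lacking manganese (B, C), against 3334 and 3920 RPKM on the 5 ppm diet (B, C). The B libraries of both diets were nearly equal. The log2 fold change was -0.21 ± 0.18 SE (limma, adjusted p = 0.867), -0.11 without the no-manganese library C, -0.09 without the 5 ppm library C and -0.32 without the 5 ppm library B. With quantile normalisation it was -0.36. A difference within these errors was not detectable with 2 libraries a diet, which does not show that the levels were the same.

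The Mal-B genes on chromosome 2L were weak in the gut and overlapped between the diets. Mal-B2 had 5.72 and 8.89 RPKM without manganese (libraries B and C), against 5.92 and 11.4 RPKM with 5 ppm (libraries B and C). It was higher in the C library than in the B library on both diets, a gap wider than that between diets. Its log2 fold change was -0.18 ± 0.35 SE (limma, adjusted p = 0.955). Its sign turned without the no-manganese library B (0.10) and without the 5 ppm library C (0.24). It was -0.46 without the no-manganese library C and -0.60 without the 5 ppm library B. Mal-B1 had 0.570 and 0.398 RPKM in no-manganese guts B and C, against 0.746 and 0.413 RPKM in 5 ppm guts B and C. These are 27 and 19 reads without manganese and 33 and 21 reads with it. Exact Poisson 95% intervals, which cover counting error only, were 0.375 to 0.829 and 0.240 to 0.622 RPKM without manganese, against 0.513 to 1.05 and 0.256 to 0.632 RPKM with it. With the filter on low values removed, its log2 fold change was -0.08 (limma, adjusted p = 0.931).

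**Figure D3:**
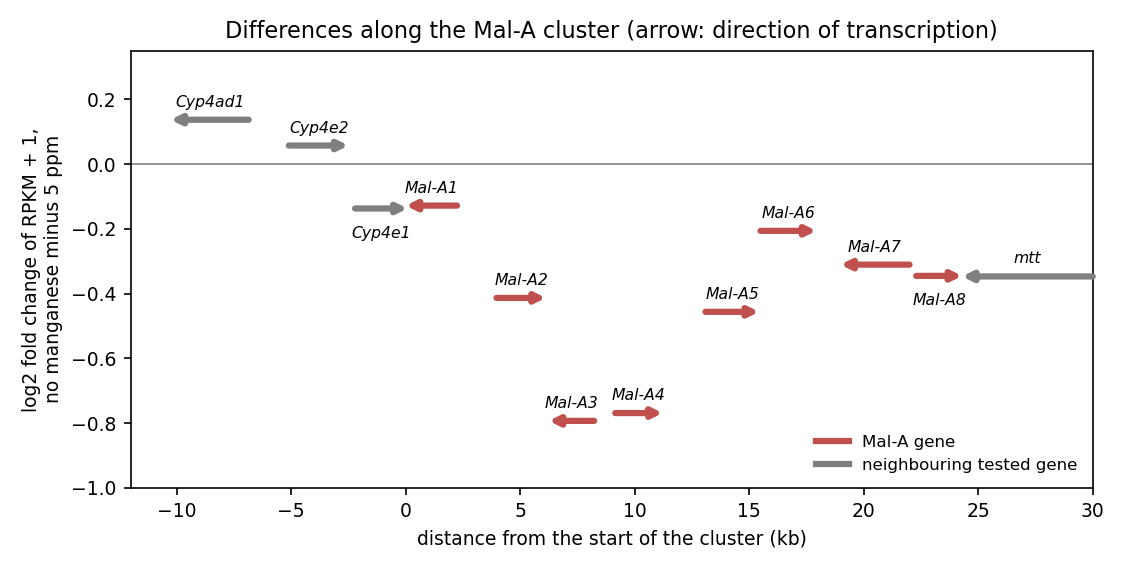
Log2 fold change of RPKM + 1 (no manganese minus 5 ppm) of the Mal-A genes (red) and of their nearest tested neighbours (grey) against distance from the start of the cluster; each arrow spans the gene and points along its transcription. Mal-A3 and Mal-A4 in the middle lie lowest, at -0.79 and -0.77, and mtt runs on past the right edge.

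Along the cluster, with all 4 libraries, the log2 fold changes lay farthest below 0 at Mal-A3 and Mal-A4. From the left edge the log2 fold changes were -0.13 for Mal-A1, -0.41 for Mal-A2, -0.79 for Mal-A3 and -0.77 for Mal-A4. They went on with -0.46 for Mal-A5, -0.21 for Mal-A6, -0.31 for Mal-A7 and -0.35 for Mal-A8. The minus-strand genes are Mal-A1, Mal-A3 and Mal-A7. Without the 5 ppm library B, Mal-A4 was at -0.49 and Mal-A8 at the right edge at -0.48. The pattern along the cluster was read from the values and not tested.

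The tested genes that flank the cluster did not pass either. On the left, the log2 fold changes of the P450 genes Cyp4e1, Cyp4e2 and Cyp4ad1 were -0.14 ± 0.15, 0.06 ± 0.40 and 0.14 ± 0.13 (± SE). Cyp4e1, which meets the end of Mal-A1, was at 1.21 and 1.35 RPKM on the diet lacking manganese (B, C), and at 1.39 and 1.63 RPKM on the 5 ppm diet (B, C). On the right, mtt, a gene for a receptor of the metabotropic glutamate type, had 5.40 and 4.20 RPKM without manganese (libraries B and C), against 6.88 and 5.83 RPKM with 5 ppm (libraries B and C). Its log2 fold change of -0.35 ± 0.15 SE (limma, adjusted p = 0.802) was close to that of Mal-A8 next to it. Farther right, CG12780 and the P450 gene Cyp6a14, 77898 and 90226 bases from the cluster, stood at log2 fold changes of 0.08 ± 0.19 and 0.77 ± 0.45 (± SE).

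Summed over the family, maltase RNA was lower in both no-manganese libraries than in either 5 ppm library. The sum was 17506 and 15212 RPKM in no-manganese guts B and C, against 19350 and 20129 RPKM in 5 ppm guts B and C. The means were 16359 ± 1622 RPKM without manganese and 19740 ± 551 RPKM with it (SD, n = 2 each), a ratio of 0.829 and a log2 ratio of -0.27. Without the no-manganese library C the log2 ratio was -0.17. No p is given for the sum, since the members were chosen with results of these data known. Without Mal-A1 the other 9 members summed to 9668 and 8432 RPKM on the diet lacking manganese (B, C), against 11623 and 11911 RPKM on the 5 ppm diet (B, C), a ratio of 0.769.

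**Figure D4:**
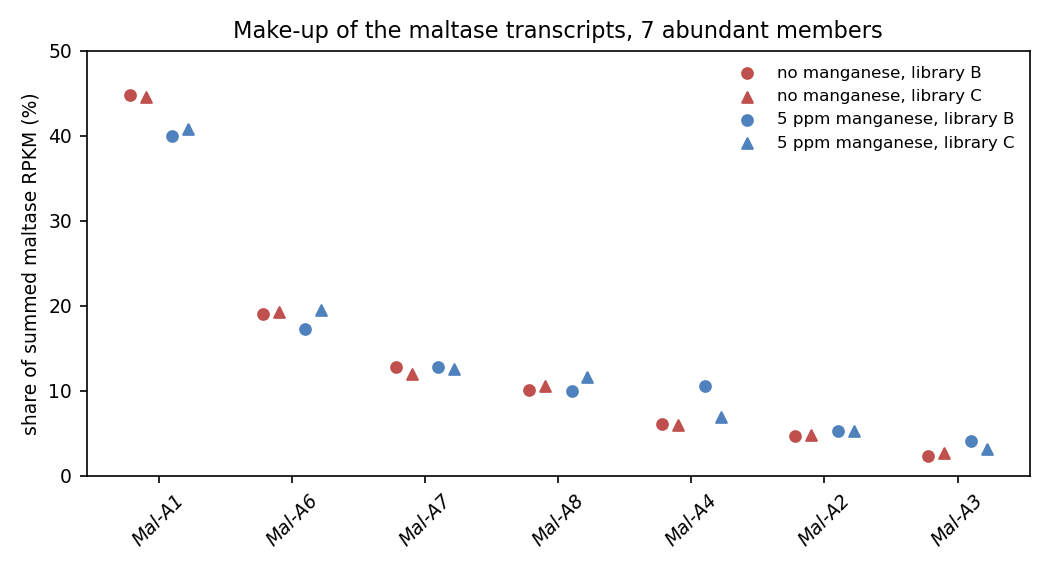
Share of the summed maltase RPKM (percent) held by the 7 abundant members, with 1 point per library, no manganese in red and 5 ppm manganese in blue. Mal-A1 held 44.8% and 44.6% without manganese and 39.9% and 40.8% with it, while the shares of Mal-A4, Mal-A2 and Mal-A3 were lower without manganese.

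In the make-up of the maltase RNA, the shares of 4 of the 10 members did not overlap between the diets, 1 higher and 3 lower without manganese. Of all tested genes, 36.9% did not overlap in RPKM in either direction. That is a different measure from a share within a family, for which no background was computed, so the count is not read as a result. A share does not depend on library scaling, but a higher share of 1 member lowers those of the others. Mal-A1 held 44.8% and 44.6% of the summed RPKM without manganese (libraries B and C), against 39.9% and 40.8% with 5 ppm (libraries B and C). Mal-A3 held 2.37% and 2.67% in no-manganese guts B and C, against 4.11% and 3.18% in 5 ppm guts B and C. Mal-A4 held 6.15% and 5.99% on the diet lacking manganese (B, C), against 10.6% and 6.94% on the 5 ppm diet (B, C). Shares of Mal-A2 were 4.69% and 4.81% without manganese (libraries B and C), against 5.23% and 5.24% with 5 ppm (libraries B and C). The other 6 members, Mal-A6, Mal-A7, Mal-A8, Mal-A5, Mal-B1 and Mal-B2, overlapped in share between the diets. No p is given for the shares, since the members were chosen with results of these data known.

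Enzymes that work before or beside the maltases were examined from a list of 5 genes, all tested. Of these, 1 was higher and 4 lower without manganese, 3 of the lower ones with no overlap, and 0 passed. Of all tested genes 43.6% were lower and 15.2% lower with no overlap. The 5 genes had a median of -0.39 on the log2 scale, against 0.024 over all tested genes. Amyrel, related to the amylases that release maltose from starch, had 12.3 and 4.17 RPKM in no-manganese guts B and C, against 27.7 and 47.0 RPKM in 5 ppm guts B and C. For Amyrel the log2 fold change was -2.16 ± 0.52 SE (limma, adjusted p = 0.786). Treh, the trehalase that splits trehalose into glucose, had 255 and 177 RPKM on the diet lacking manganese (B, C), against 351 and 328 RPKM on the 5 ppm diet (B, C). Both genes lay below the lower 5 ppm library in each no-manganese library, with the no-manganese library C lowest. The other glucosidase gene, tobi, an insulin-responsive target, was as abundant as the strong maltases, with 4918 and 4426 RPKM without manganese (libraries B and C), against 5201 and 5885 RPKM with 5 ppm (libraries B and C). Amy-p was at 0.48 ± 0.35 SE on the log2 scale, and as a near-identical copy of Amy-d its separate value is uncertain.

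**Figure D5:**
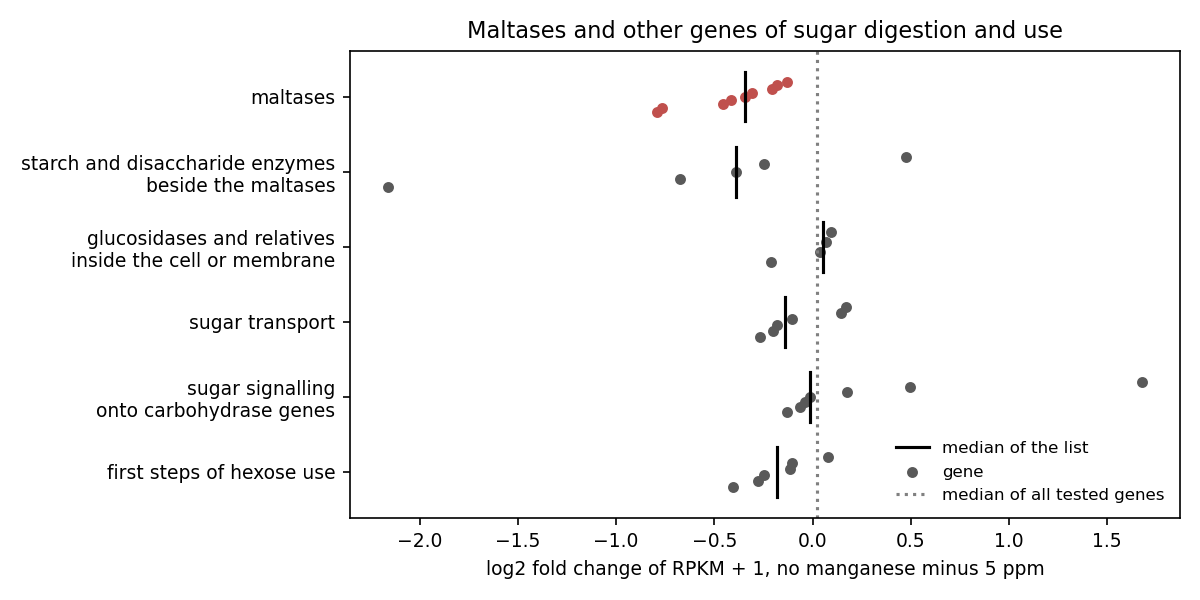
Log2 fold change of RPKM + 1 (no manganese minus 5 ppm) of the tested maltases (red) and of 5 lists of other genes of sugar digestion and use (dark grey); each point is a gene, each bar the median of its list. The maltases lie between -0.79 and -0.13, Amyrel is the far left point at -2.16 and sug the far right point at 1.68, and 0 genes shown passed at an adjusted p under 0.05.

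Glucosidases inside the cell lay close to 0. Of a list of 6 genes 4 were tested, of which 3 were higher, 1 lower and 0 past the test (median 0.05). Of all tested genes 43.6% were lower. GCS1, GCS2alpha and GCS2beta, which trim glucose from glycoproteins in the endoplasmic reticulum, were at log2 fold changes of 0.07 ± 0.10, 0.04 ± 0.10 and 0.09 ± 0.11 (± SE). CD98hc, a subunit of amino acid transporters with a glucosidase-like outer domain, was at -0.21 ± 0.32 SE. The other listed genes were not analysed here.

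Sugar transporters, which carry the products onward, also gave no call. Of 9 listed, 6 were tested, 2 higher and 4 lower (median -0.14), where 43.6% of all tested genes were lower. Tret1-1, a trehalose transporter, had 14.0 and 14.3 RPKM in no-manganese guts B and C, against 15.4 and 17.4 RPKM in 5 ppm guts B and C. The sugar transporter genes sut1, sut2 and Glut1 were at log2 fold changes of -0.18 ± 0.11, 0.17 ± 0.13 and 0.15 ± 0.14 (± SE). Glut3 and sut4 were listed at 0 in all libraries, and Tret1-2 was under the filter. Among 7 genes of the first steps of hexose use 6 were tested, 1 higher and 5 lower (median -0.18), with 0 past the test. The share of all tested genes that were lower was 43.6%. Pgi, which interconverts the hexose phosphates of glycolysis, was at -0.41 ± 0.12 SE on the log2 scale, Galk, galactokinase, -0.28 ± 0.11 SE, UGP, which makes UDP-glucose, -0.25 ± 0.19 SE, and the hexokinase Hex-A -0.12 ± 0.19 SE.

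Genes that carry the sugar signal to carbohydrase genes were examined as a list of 8. Of the 7 tested, 3 were higher and 4 lower (median -0.01), where 43.6% of all tested genes were lower, and 0 passed the test. The sugar-induced zinc finger gene sug had 19.98 and 48.3 RPKM on the diet lacking manganese (B, C), against 4.75 and 16.6 RPKM on the 5 ppm diet (B, C). Its values did not overlap between the diets, and it was higher in library C than in library B on both. For sug the log2 fold change was 1.68 ± 0.68 SE (limma, adjusted p = 0.802). Mondo and bigmax, the partners of the glucose-sensing transcription factor, were at 0.18 ± 0.18 SE and -0.04 ± 0.11 SE. In the activin-type pathway that represses carbohydrases in sugar-fed flies, the receptor babo was at -0.13 ± 0.10 SE and the Smad protein gene Smox at -0.01 ± 0.14 SE. The ligand gene daw was under the filter, with 0.402 and 0.336 RPKM without manganese (libraries B and C) and 0.336 and 0.258 RPKM with 5 ppm (libraries B and C). The repressor cbt, also sugar-induced, had 24.1 and 24.2 RPKM in no-manganese guts B and C, against 13.4 and 21.1 RPKM in 5 ppm guts B and C.

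The genes whose pattern over the 4 libraries lay nearest to that of the summed maltases were Dcr-2, CG7997, NUCB1, Indy and CG10877. Likeness was the Euclidean distance between log2 profiles centred on their own means, 0.0455 to 0.0545 for these 5 genes, against a median of 0.419 over 7547 genes. The 5 genes were picked for the smallest distances. Their small distances and their lower values without manganese follow from that choice and are not results about them. Dcr-2, the dicer of the small interfering RNA pathway, had 21.1 and 17.7 RPKM on the diet lacking manganese (B, C), against 22.4 and 23.6 RPKM on the 5 ppm diet (B, C). Indy, a citrate transporter, had 80.8 and 69.3 RPKM without manganese (libraries B and C), against 87.6 and 88.6 RPKM with 5 ppm (libraries B and C). Among the maltases themselves the distance to the sum was smallest for Mal-A7 (0.0796) and largest for Mal-B2 (0.777), with 0.594 for Mal-A3 and 0.655 for Mal-A4. Each maltase is itself part of the sum in proportion to its RPKM, so the distances of the members depend in part on their levels. In all, 14 genes that are not maltases lay nearer to the sum than Mal-A7 did.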

How the data were processed

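Gut RNA of 4 libraries was sequenced on an Illumina NextSeq instrument, per the labels' protocols. The authors deposited 1 table of RPKM values; STAR 2.5.2b, DESeq2 and the dm6 build appear in the submitters' processing notes, with no roles. Not given in the sources used here are the annotation, the read counter and its strand setting. Columns name the diet and a letter but no sample number, so each stands for its diet only. The Ensembl 115 annotation of BDGP6 (dm6 coordinates) gave the positions and exon lengths. Depth was recovered from the steps of low values, 84.5% to 85.5% of which (under 20 reads) lay within 0.02 of a whole read. RPKM divides by library total, so RNA of another tissue lowers the values of genes that this tissue expresses weakly or not at all.

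Diets were compared with limma 3.58.1 (R 4.3.3), run on log2(RPKM + 1), no manganese minus 5 ppm, 2-sided, with a trend in the prior variance, over 7556 genes with a mean of at least 1 RPKM. P-values were adjusted by Benjamini-Hochberg over those genes, with a threshold of 0.05. The scripts were tested on simulated data. Alternatives were other pseudocounts, filters and scalings, removal of the trend with exon length, other variance settings, voom on recovered reads, a block for the library letter, and leaving out every library once; counts of non-overlapping members with 1 library left out were added after seeing the data. All 10 members are named; of each other list up to 4 genes with the smallest unadjusted p, the 6 sugar-signalling genes sug, Mondo, bigmax, daw, babo and Smox, 3 tested neighbours on each side of the cluster and the 5 genes nearest in pattern. Glut3, sut4, Tret1-2, brv1, Cp15, Akh, the named enterocyte and fat body markers and the ratios between members were singled out after values were seen. The members and lists were chosen with earlier results of these data known. Protein and promoter sequences were not analysed here.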

Additional observations from a re-analysis of the deposited data

How the results depend on the processing

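Under 11 alternatives that kept all libraries, 0 maltases were called, and all tested members stayed below 0 (9 of 9, or 10 of 10 without any filter). In each, 4 had an unadjusted p under 0.05, but the share of all tested genes under it was not computed for the alternatives. All of them reuse the same 4 libraries. The variance settings and the letter block left each log2 fold change unchanged, so the signs could not differ there. Under the 8 alternatives that recomputed it, the median log2 fold change ran from -0.38 (trend with exon length removed) to -0.31 (pseudocount 5). Log2 fold changes ran with exon length across 7506 genes (Spearman's rho -0.27; genes are not independent replicates). Quantile normalisation moved Mal-A1 to -0.04 and Mal-A6 to -0.36. Without any filter Mal-B1 had a log2 fold change of -0.08. With 1 library left out, 0 to 11 genes were called over all genes, 0 of them maltases; 1 to 3 of the 9 maltases had an unadjusted p under 0.05; the median ran from -0.48 to -0.30, the log2 ratio of the summed RPKM from -0.38 to -0.17, and Mal-B2 from -0.60 to 0.24. Calls over all genes numbered 11 without the no-manganese library B and 5 without C, from fewer samples; the cause was not tested. With the letter as a replicate block, 0 genes and 0 maltases were called, and the smallest adjusted p of a maltase was 0.254 (limma). In that fit 4 maltases had an unadjusted p under 0.05. The share of all tested genes under it was not computed for that fit, so this count has no background. Deviations of same-letter libraries correlated at 0.341 across genes, but the labels do not tie the letters to a shared batch, and 2 pairs cannot settle it. Depth limits Mal-B1, with 19 to 33 reads a library.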
